A study of Mus musculus with 25 samples.

Results

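The Nanog locus was described through every chromatin contact listed for it in 9 interaction lists. Its members are the 10 kb bin that holds the start of Nanog, chr6:122700001-122710000 in build mm10, and the 16 bins of the surrounding 160 kb, chr6:122590001-122750000, which also hold Dppa3 and Gdf3. The rule takes them by their position, out of 144091 bins that occur in any list. A pair of bins counted for the stretch when either bin lay in it. The lists held 169 distinct pairs of this kind: 6 in MEF H3K27ac, 124 in ES H3K27ac, 128 in TKO 0 h H3K27ac, 107 in TKO 24 h H3K27ac, 7 in day 3 KLF4, 2 in day 6 KLF4, 22 in ES KLF4, 32 in MEF Hi-C and 77 in ES Hi-C. Of these, 1, 23, 22, 18, 2, 0, 3, 1 and 3 touched the Nanog bin, in the same order. The authors' FDR was under 0.1 for 0, 28, 36, 23, 0, 0, 1, 3 and 8 of the stretch's pairs, in this order. In the whole H3K27ac lists it was so for 1118 of 60870, 4453 of 75466, 7219 of 93248 and 4913 of 84256 pairs. For KLF4 it was 127 of 23720, 7 of 4047 and 49 of 24589, and for Hi-C 28684 of 228083 and 28050 of 318622. Listing alone thus did not mean an FDR under 0.1.

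The study followed mouse fibroblasts on their way to induced pluripotency and compared them with embryonic stem (ES) cells. Fibroblasts (MEF) came from E13.5 rtTA3-OKSM embryos, were heterozygous for the Oct4-GFP reporter, the OKSM cassette and rtTA3, and were taken at passage 3. The series text gives the transactivator as Rosa26-M2rtTA and the cassette as Col1a1-OKSM. OKSM is a doxycycline-driven cassette of the reprogramming factors Oct4, Klf4, Sox2 and Myc, so KLF4 at day 3 and day 6 was read in cells that carry a Klf4 transgene. Those cells were the same fibroblasts grown with doxycycline and ascorbic acid, taken in bulk at day 3 and sorted at day 6 for SSEA1, a surface marker of cells close to pluripotency. ES cells were the line V6.5 in 2i medium, which is 1 line. The TKO cells are also labelled V6.5 in 2i, without doxycycline (0 h) or with it for 24 h. The labels do not spell out TKO. H3K27ac HiChIP had 2 libraries for MEF, 2 for ES, 3 for TKO at 0 h and 3 at 24 h, KLF4 HiChIP had 3 at day 3, 4 at day 6 and 4 in ES, and Hi-C had 2 for each of MEF and ES.

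Nanog encodes a homeodomain transcription factor of the naive pluripotency network. It sits in a cluster with Dppa3, a germ-line and early-embryo gene also called Stella, Gdf3, a growth factor of the TGF-beta family, and Apobec1, an RNA-editing cytidine deaminase. Slc2a3, which encodes a glucose transporter, follows downstream. In ES cells the cluster is known for enhancers on both sides of Nanog. HiChIP ligates DNA ends that lie together in the nucleus and keeps the fragments that an antibody pulls down, so a HiChIP contact depends on both the contact and the mark. Hi-C does the same without an antibody.

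RefSeq places Nanog at chr6:122707489-122714633 (GRCm38.p6, the assembly behind mm10), so the gene starts in the Nanog bin and ends in the next one. Its promoter is shown because KLF4 contacts were measured at this bin. It is the plus strand of chr6:122707239-122707538, 250 bases before to 50 bases after the start. Capitals mark 2 matches to the KLF core GGGNGTG, and 1 match each to the octamer core TTTGCAT and the Sox core ACAATG, which stand 1 base apart. Both strands were searched, and no match overlaps another.

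Nanog promoter: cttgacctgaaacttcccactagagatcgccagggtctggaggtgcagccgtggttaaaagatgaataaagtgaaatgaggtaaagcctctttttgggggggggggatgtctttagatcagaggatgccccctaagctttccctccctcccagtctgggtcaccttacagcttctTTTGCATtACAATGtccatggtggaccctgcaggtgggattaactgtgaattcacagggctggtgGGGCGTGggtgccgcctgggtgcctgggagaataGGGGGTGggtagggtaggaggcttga

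Of 32851 RefSeq promoters of 300 bases, 9578 (29.2%) hold the KLF core, 1520 (4.63%) the octamer core and 4129 (12.6%) the Sox core. The cores were chosen with this promoter known, and a match describes letters and not a bound site.

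Strength is the authors' CPM, a contact count scaled to all contacts of the same chromosome in that library. HiChIP libraries held 48664847 to 180568707 contacts. On chromosome 6, 1 CPM was worth 3.00 to 10.97 contacts. The authors listed a pair only above their limits (a CPM of 3 in each H3K27ac library), so an unlisted pair may have any lower value. In the KLF4 lists only libraries 1 and 2 kept to a CPM of 3. Values of the other KLF4 libraries went down to 0 CPM at day 3 and in ES, and to 0.567 and 0.343 CPM at day 6. Libraries 1 and 2 of ES KLF4 stood apart from libraries 3 and 4, with a chi-square per degree of freedom of 1.26 to 1.53 across the divide and of 0.994 and 1.01 within it. The divide ran between the same libraries as this limit, and the part of the limit in it was not tested. Where some libraries of a group differed, those that a chi-square test did not tell apart (p of 0.05 or more) were counted as 1 replicate: libraries 1 and 2, and 3 and 4, of ES KLF4, and libraries 1 and 3 of TKO 24 h. That test told none of the 4 day 6 KLF4 libraries apart, and they stayed 4 replicates. Their spread was thus not told from counting noise, which limits the day 6 p-values. The labels do not tie libraries to separate cultures or embryos, so p-values measure the spread between these libraries. In bulk cells, fewer cells with a contact and a weaker contact per cell cannot be told apart.

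In ES H3K27ac the Nanog bin was one of the most connected bins of its chromosome. Its 23 H3K27ac pairs gave it rank 3 among the 1714 bins of chromosome 6 in that list and rank 110 among 40136 bins genome-wide, where the median bin had 2 pairs. The 160 kb stretch held 4.18% of all listed chromosome 6 pairs. Its pairs were also long. Of the 124, 68 (54.8%) spanned 50 kb or more, against 26.3% of the whole list, and the median span was 50 kb against 30 kb. The Nanog bin ranked lower in the other ES lists. In ES KLF4 its 3 pairs gave rank 103 among 1051 bins of chromosome 6, where the median bin had 1. In ES Hi-C its 3 pairs gave rank 3681 among 6232 bins, below the chromosome's median of 5 pairs.

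The strongest partner of Nanog was not a neighbour. In ES H3K27ac it was the bin 60 kb downstream, chr6:122760001-122770000, inside the RefSeq span of Slc2a3 (chr6:122727809-122802363), at 36.7 and 31.2 CPM in the 2 libraries (mean 34.0 ± 3.90 SD, n = 2). The adjacent bins came next, with 28.3 ± 0.326 CPM upstream and 25.5 ± 1.46 CPM downstream. Strength did not fall evenly with distance: the bin 50 kb downstream had 9.13 and 6.31 CPM, well under the bin beyond it. Upstream, a plateau of 19.3 ± 0.744 to 22.9 ± 2.02 CPM covered the bins at 40, 30 and 20 kb, and the bin at 50 kb dropped to 4.75 ± 0.247 CPM. In each of these contrasts the 2 libraries of one bin lay wholly above those of the other. The 2 libraries gave 127 and 133 CPM summed over the 11 upstream partners, and 160 and 144 CPM over the 12 downstream partners.

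The partner bins with a gene assigned by the authors had 4.14 to 9.40 CPM with Nanog in ES H3K27ac, at or below the median of its 23 partners (9.40). The bin the authors assign to Apobec1, 100 kb upstream, paired with Nanog at 9.24 and 9.56 CPM. The Dppa3 bin, 80 kb upstream, did so at 6.16 and 4.48 CPM. The farthest partner was the bin of Phc1, a Polycomb subunit gene 360 kb upstream, at 6.47 and 7.42 CPM. Downstream, the bins of Slc2a3 (100 kb), Foxj2 (110 kb) and Gm26826 (120 kb) had means of 5.16, 6.64 and 4.14 CPM. Apart from the Gdf3 bin, every bin from 110 kb upstream to 120 kb downstream was a listed partner.

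**Figure D1:**
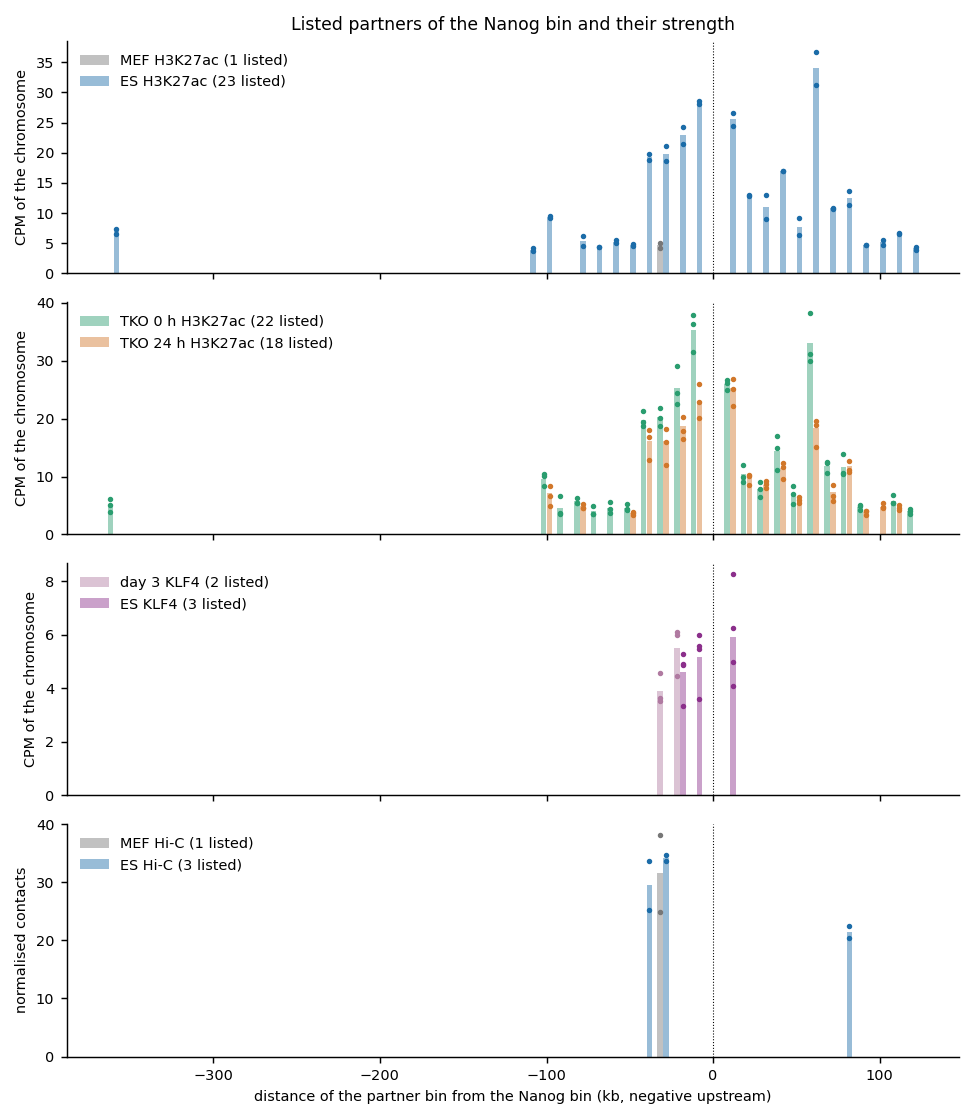
Partners of the Nanog bin by distance in kb (x axis) and strength (y axis, CPM of the chromosome, or the authors' normalised contacts for Hi-C), with bars for the mean over replicates and dots for single libraries. In ES H3K27ac the bin 60 kb downstream stands at 34.0 CPM above its neighbours at 7.72 and 10.8 CPM, and in TKO cells the same bin is the one with the widest gap between 0 h and 24 h.

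The Apobec1 bin was as connected as that of Nanog. In ES H3K27ac it, chr6:122600001-122610000, had 25 pairs, and by RefSeq it also holds most of the Gdf3 gene body (chr6:122605403-122610087). The bin 40 kb upstream of Nanog, which holds no RefSeq gene, had 19. The Dppa3 bin had 9 pairs and the Gdf3 bin 4. The strongest partners of the Apobec1 bin were the Dppa3 bin at 17.7 CPM and the Gdf3 bin at 17.2 CPM, and the bin of the downstream maximum, 160 kb away, was linked to Apobec1 at 9.04 ± 1.17 CPM, to Dppa3 at 5.83 CPM and to Gdf3 at 4.44 CPM. Thus all 4 gene bins of the cluster shared this partner.

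TKO cells at 0 h shared most of these pairs. Of the 124 ES pairs, 113 (91.1%) were among the 128 TKO pairs (88.3%), against 77.6% and 62.8% for the whole lists. The partner 60 kb downstream stood at 29.9, 31.2 and 38.3 CPM, the upstream neighbour at 31.5, 38.0 and 36.4 CPM and the downstream neighbour at 25.0, 26.6 and 26.2 CPM. The difference from ES was not tested. The Gdf3 bin was a partner of Nanog in this list alone, at 3.72, 6.56 and 3.60 CPM. Each HiChIP and Hi-C list was filtered on its own libraries, so a pair found in 1 list only can lie just under the limit of the others.

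**Figure D2:**
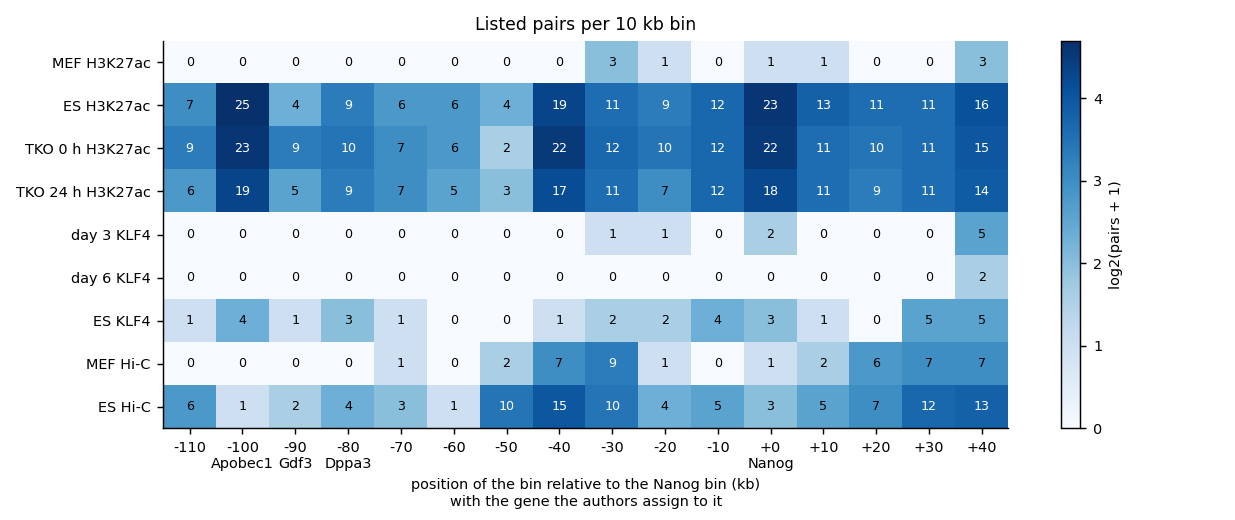
Number of listed pairs (printed in each cell, colour on a log2 scale) for the 16 bins of the stretch (x axis, kb from the Nanog bin) in the 9 lists (y axis). All 16 bins have pairs in ES and TKO H3K27ac, whereas the bins from 110 to 40 kb upstream are empty in MEF H3K27ac, day 3 KLF4 and day 6 KLF4.

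In fibroblasts the locus was nearly bare of listed H3K27ac contacts. The 6 MEF pairs touched 5 of the 16 bins, from 30 kb upstream of Nanog to 40 kb downstream, and the longest spanned 40 kb. Only 3 had both bins in the stretch, and the others led from the bin 40 kb downstream to bins beyond it. The Apobec1, Gdf3 and Dppa3 bins had none. The 2 MEF libraries were shallower, with 4.52 and 6.29 contacts to 1 CPM on chromosome 6 against 9.74 and 9.83 in ES, and the part of depth in the count was not tested. With the ES list reduced to the 60870 strongest pairs, the length of the MEF list, the stretch held 104 pairs and the Nanog bin 22. This cut matched the length of the lists and not the depth of the libraries.

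All 6 MEF pairs were also in the ES list, against 29.4% of the whole MEF list, and all 6 were higher in ES (edgeR's quasi-likelihood test, Benjamini-Hochberg adjustment over 17901 pairs in both lists), where 32.0% of all tested pairs were called, 17.6% higher and 14.4% lower in ES. Their median log2 difference was 1.20, against -0.04 for all tested pairs. The single Nanog pair joined the gene to the bin 30 kb upstream, chr6:122670001-122680000, which holds no RefSeq gene. It stood at 4.20 and 5.09 CPM in MEF and at 18.6 and 21.1 CPM in ES (log2 difference 1.78, SE 0.19, adjusted p = 9.43e-11). The libraries of the 2 cell types did not overlap.

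The largest difference was at the pair of the bins 40 and 60 kb downstream, both inside Slc2a3. It measured 6.86 and 6.52 CPM in MEF and 63.8 and 60.8 CPM in ES (log2 difference 2.94, SE 0.14, adjusted p = 8.88e-23). Further pairs of the bin 40 kb downstream differed less. Its pair with the bin at 80 kb had a log2 difference of 1.49 (SE 0.21, adjusted p = 6.45e-08), and that with its neighbour at 50 kb one of 0.86 (SE 0.17, adjusted p = 3.73e-05). The bin 30 kb upstream also paired with the bins 20 kb upstream (0.90, SE 0.19, adjusted p = 1.61e-04) and 10 kb downstream of Nanog (0.69, SE 0.26, adjusted p = 0.0343). The last call was lost without MEF library 2 (adjusted p = 0.459), without ES library 1 (0.156) and with DESeq2 (0.277). On contact totals alone the median of all tested pairs moved to 0.21, with 4831 pairs higher and 1426 lower in ES against 3152 and 2569, and all 6 calls held.

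The bin 40 kb downstream was the one point of the stretch that all groups had in common. Its pairs with the bins at 50 and 60 kb were in all 9 lists, the only such pairs, and its pair with the bin at 80 kb was in 8. It lies in the Slc2a3 span, and neither it nor these partners is assigned a gene start by the authors. In H3K27ac its pair with the bin at 60 kb was the strongest of the stretch in ES and in TKO cells, with 57.8, 72.7 and 66.0 CPM at 0 h and 52.5, 53.7 and 52.0 CPM at 24 h. In MEF the pair with the neighbour at 50 kb was stronger, at 10.2 and 8.26 CPM.

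**Figure D3:**
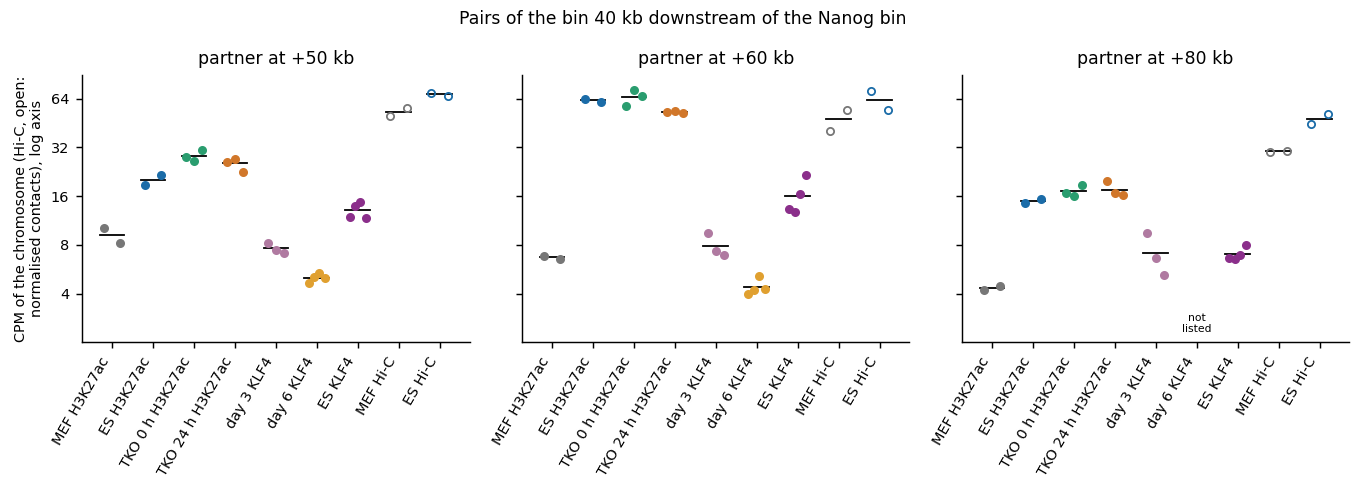
Strength (log y axis, CPM of the chromosome, Hi-C as open circles in the authors' normalised contacts) of the pairs that join the bin 40 kb downstream of Nanog with the bins at 50, 60 and 80 kb, by group; dots are libraries and lines the mean over replicates. The pair with the bin at 60 kb has means of 6.69 CPM in MEF and 62.3 CPM in ES H3K27ac, and of 4.41 CPM at day 6 and 16.1 CPM in ES KLF4.

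KLF4 lists held 7 pairs of the stretch at day 3, 2 at day 6 and 22 in ES, with median spans of 30, 15 and 20 kb against 20 kb in each whole list. The whole lists held 23720, 4047 and 24589 pairs, so the stretch made up 0.0295%, 0.0494% and 0.0895% of them. KLF4 is a zinc finger factor that binds the motif family marked in the promoter above and is used to reprogram cells. At day 3 the Nanog bin had 2 KLF4 pairs, with the bin 20 kb upstream at 6.09, 5.98 and 4.47 CPM and with the bin 30 kb upstream at 4.57, 3.54 and 3.65 CPM. In ES it had 3, with the bins 20 and 10 kb upstream and 10 kb downstream, at means of 4.60, 5.17 and 5.91 CPM. The downstream one varied most, with 4.11, 6.25, 8.28 and 4.99 CPM in libraries 1 to 4. At day 6 no pair of the Nanog bin was listed. Reduced to the length of the day 6 list, the ES and day 3 lists also held 2 pairs of the stretch each and 0 of the Nanog bin.

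The one Nanog pair in both the day 3 and the ES list, that with the bin 20 kb upstream, did not pass the test. ES had 4.89, 5.27, 4.92 and 3.32 CPM, overlapping day 3 (log2 difference ES over day 3 -0.33, SE 0.22, edgeR adjusted p = 0.442). All 22 ES KLF4 pairs were also ES H3K27ac pairs, against 74.0% of the whole KLF4 list. They covered 13 of the 16 bins with a median span of 20 kb, and among the genes upstream they joined Dppa3 to Gdf3 (6.75 CPM) and to Apobec1 (5.74 CPM). No KLF4 pair joined any of those 3 gene bins to Nanog, and the bins from 110 to 40 kb upstream had no KLF4 pair at day 3 or day 6.

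In KLF4, 2 pairs were higher in ES than during reprogramming, both of the bin 40 kb downstream. With the bin at 60 kb the values were 9.44, 7.32 and 6.93 CPM at day 3, 3.99, 4.23, 5.16 and 4.26 CPM at day 6, and 13.3, 12.8, 16.6 and 21.6 CPM in ES. Neither time point overlapped ES. The log2 difference was 1.05 against day 3 (SE 0.21, edgeR adjusted p = 1.67e-04) and 1.23 against day 6 (SE 0.21, adjusted p = 1.82e-04). With the bin at 50 kb it was 0.71 (SE 0.20, adjusted p = 0.0171) and 0.67 (SE 0.19, adjusted p = 0.0321). The latter calls are weak: DESeq2 gave adjusted p = 0.143 and 0.112, and each was lost without any 1 of the day 3 (up to 0.189) or day 6 libraries (up to 0.123), the day 6 one also without ES library 3 (0.08) or 4 (0.0562). On contact totals alone the day 6 differences were 1.83 and 1.27. Both contrasts share the ES libraries.

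Thus 2 of the 4 pairs listed at both day 3 and ES, and 2 of the 2 listed at both day 6 and ES, were called higher in ES, against 3.02% and 2.60% of all tested pairs called higher. Calls in either direction made up 7.20% (4.18% lower in ES) and 3.37% (0.771% lower). On contact totals alone the day 3 contrast had 128 pairs higher and 156 lower in ES, against 223 and 309, and the day 6 contrast had 1158 pairs higher and 1 lower in ES, against 54 and 16, and its median moved to 0.59. The other pair, of the bins 40 and 80 kb downstream, stood at 7.08 ± 2.16 CPM at day 3 (n = 3) and 7.04 ± 0.593 CPM in ES (n = 2; log2 difference 0.07, SE 0.20, adjusted p = 0.905). Without ES libraries 3 and 4 both day 3 calls were lost (log2 differences 0.64 and 0.60, adjusted p = 0.0563 and 0.0881), and of the day 6 calls the one with the bin at 60 kb remained (0.80, adjusted p = 0.0309). Without libraries 1 and 2 all calls held. Each of these fits leaves 1 ES replicate, which is assumed to vary like the other group.

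Between day 3 and day 6, 0 of the 2 pairs in both lists differed by edgeR's quasi-likelihood test, against 5.33% of all tested pairs (1.32% higher and 4.01% lower at day 6), 0 had an unadjusted p under 0.05, and DESeq2 also called 0. The CPM itself was lower at day 6, at 4.41 ± 0.512 against 7.90 ± 1.35 for the pair with the bin at 60 kb, and the libraries did not overlap. The fit, whose TMM scaling centres the pairs in both lists, gave a log2 difference of -0.12 (SE 0.18). On contact totals alone both pairs were called lower at day 6 (-0.74, adjusted p = 1.42e-03, and -0.53, adjusted p = 0.0132), in a fit where the median of all pairs moved to -0.58 and 1584 pairs were lower and 6 higher, against 103 and 34.

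In TKO cells some contacts of Nanog were lower after 24 h of doxycycline. Of the 17 Nanog pairs in both TKO lists, 13 were below 0 on the log2 scale at 24 h and 3 were called lower by edgeR's quasi-likelihood test (17.6%), against 2.80% of all 67723 tested pairs called, 2.20% lower and 0.601% higher. In the stretch 6 of 102 pairs (5.88%) were called, all of them lower at 24 h. The median log2 difference was -0.20 for Nanog pairs and -0.18 for the stretch, against 0.01 for all tested pairs. The Nanog bin's listed contacts summed to 259, 286 and 282 CPM at 0 h and to 183, 213 and 197 CPM at 24 h, over 22 and 18 pairs. On contact totals alone 11 pairs of the stretch were called, the median of all pairs moved to -0.10, and 3019 pairs were lower and 183 higher, against 1487 and 407.

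The downstream maximum of Nanog fell the most among Nanog's pairs. Its 29.9, 31.2 and 38.3 CPM at 0 h became 15.2, 19.6 and 18.9 CPM at 24 h, so the 2 times did not overlap (log2 difference -0.74, SE 0.12, adjusted p = 2.11e-07). V6.5 ES cells, at 36.7 and 31.2 CPM, lay within the 0 h range. The pair with the bin 70 kb downstream went from 12.6, 12.3 and 10.6 CPM to 5.73, 8.54 and 6.71 CPM (-0.62, SE 0.18, adjusted p = 0.0212). That with the upstream neighbour, a bin with the pseudogenes Gm10420 and Gm10224, went from 31.5, 38.0 and 36.4 CPM to 20.2, 22.9 and 26.0 CPM (-0.49, SE 0.11, adjusted p = 1.57e-03).

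Most of Nanog's contacts did not pass the test. The downstream neighbour stood at 25.0, 26.6 and 26.2 CPM at 0 h and at 25.1, 26.8 and 22.2 CPM at 24 h (log2 difference 0.05, SE 0.11, adjusted p = 0.904, and -0.050 on contact totals alone). The bin 80 kb downstream, next to the ones that fell, had 11.7 ± 1.96 CPM (n = 3) and 11.8 ± 1.28 CPM (n = 2; 0.11, SE 0.16, adjusted p = 0.830). All 7 upstream partners in both lists were below 0, with a median of -0.25, against 6 of the 10 downstream partners with a median of -0.18. Among these the Apobec1 bin had -0.35 (SE 0.19, adjusted p = 0.382) and the Dppa3 bin -0.15 (SE 0.22, adjusted p = 0.853).

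Of the 3 other called pairs, 2 ended in the bin 60 kb downstream. The bin next to Nanog, 10 kb upstream, had a weaker listed contact with the downstream maximum (15.2 ± 2.07 to 8.26 ± 1.10 CPM, log2 difference -0.79, SE 0.16, adjusted p = 2.58e-04). So did the Apobec1 bin (12.5 ± 2.03 to 7.17 ± 1.94 CPM, -0.72, SE 0.18, adjusted p = 4.20e-03). The third joined the bins 40 kb upstream and 20 kb downstream of Nanog (8.19 ± 2.42 to 4.58 ± 0.384 CPM, -0.77, SE 0.21, adjusted p = 0.0186). Of the 12 pairs of the stretch that end in the bin 60 kb downstream, 11 were below 0, with a median of -0.32, a group singled out after its values were seen. The strongest of them, with the bin 40 kb downstream, had -0.19 (SE 0.09, adjusted p = 0.302). Both pairs that the downstream maximum formed with Nanog and with the bin 10 kb upstream were called in every alternative fit. The pair of Nanog with its upstream neighbour missed the threshold with DESeq2 (adjusted p = 0.0565). For the other 3 pairs DESeq2 gave no adjusted p, and it called 2 of the 102 in all. The Apobec1 call was lost without 0 h library 3 (0.0739) or 24 h library 3 (0.0681). The call of Nanog with the bin 70 kb downstream was lost without 0 h library 1 or 2 or 24 h library 1 or 3 (adjusted p up to 0.148). That of the bins 40 kb upstream and 20 kb downstream was lost without 0 h library 1 or 2 or 24 h library 2 or 3 (up to 0.268).

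**Figure D4:**
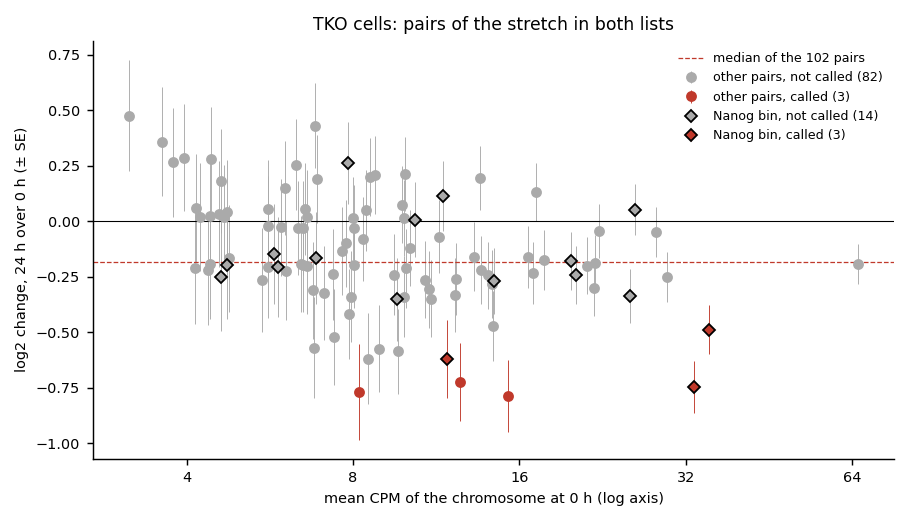
Log2 change from 0 h to 24 h of doxycycline in TKO cells (y axis, bars ± SE) against strength at 0 h (log x axis, CPM of the chromosome) for the 102 pairs of the stretch in both lists. The 6 called pairs, 3 of them of the Nanog bin, lie between -0.79 and -0.49, and the dashed line marks the median of -0.18.

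Pairs that left the list were weak. At 0 h 26 pairs of the stretch were listed that were absent at 24 h, and 5 pairs the other way round. Thus 79.7% of the stretch's 0 h pairs were also in the 24 h list, against 72.6% of the whole 0 h list. Of its 24 h pairs 95.3% were also in the 0 h list, against 80.4% of the whole 24 h list. The 26 ranged from 3.59 to 6.05 CPM, and 15 of them were also in the V6.5 ES list. Of them 5 touched Nanog, among them the long pair with Phc1 at 3.87, 5.17 and 6.13 CPM. With the 0 h list reduced to the length of the 24 h list, the stretch held 114 pairs against 107 and the Nanog bin 20 against 18. Per the authors' marks, an H3K27ac ChIP peak lay in 15 of the 16 bins at 0 h and in the same 15 at 24 h, the bin 50 kb upstream being the exception, and the bin of Nanog had one at both times.

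Hi-C, which needs no acetylation, listed contacts of the stretch in both cell types, but few of the Nanog bin. MEF had 32 pairs over 10 bins and ES 77 over all 16, each with a median span of 60 kb. With the ES list reduced to the length of the MEF list, 44 pairs remained in the stretch. The Nanog bin paired with the bin 30 kb upstream in both cell types, at 24.9 and 38.1 normalised contacts in MEF and 33.6 and 34.7 in ES (log2 difference -0.05, SE 0.28, adjusted p = 0.999). ES also listed its pairs with the bins 40 kb upstream (25.2 and 33.7) and 80 kb downstream (20.4 and 22.4).

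Of the 26 Hi-C pairs in both lists, 0 were called by edgeR's quasi-likelihood test, against 0.0322% of all 124204 tested pairs (0.0209% higher and 0.0113% lower in ES). An unadjusted p under 0.05 was reached by 3, and DESeq2 called 0. Of the 26, 19 were above 0 and 7 below, from -0.78 to 0.84, with a median of 0.14 against 0.00248 for all tested pairs. The 3 smallest p-values belonged to the bins 30 and 80 kb downstream (22.0 ± 4.12 normalised contacts in MEF and 44.1 ± 1.19 in ES, n = 2 each), those 40 and 70 kb downstream (26.5 ± 5.13 and 48.3 ± 3.82) and those 40 kb upstream and 80 kb downstream (32.8 ± 5.68 and 21.8 ± 4.84). Their libraries did not overlap, but their edgeR adjusted p was 0.511, 0.637 and 0.619. They were chosen after their values were seen. The pair of the bins 40 and 60 kb downstream, which differed most in H3K27ac, had 40.6 and 54.6 normalised contacts in MEF and 70.8 and 54.1 in ES, so the libraries overlapped.

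The authors' domain lists, made from Hi-C with 1 set per cell type, drew the boundary near Nanog 40 kb apart. The domain edges given here lie on a 40 kb grid, so this is 1 grid step. Without replicate sets, a difference between the cell types was not tested. In ES a domain ended at 122640000, which puts Apobec1, Gdf3 and Dppa3 in the domain chr6:121560001-122640000 and Nanog with Slc2a3 in chr6:122640001-122880000. In MEF the boundary was at 122600000, so the bins of Apobec1, Gdf3, Dppa3 and Nanog all lay in chr6:122600001-122880000. The ES boundary was crossed by 21 of the 124 ES H3K27ac pairs (16.9%), 5 of them of Nanog, and by 20 of 128 in TKO at 0 h and 13 of 107 at 24 h. Crossing pairs had a median of 4.50 CPM in ES H3K27ac and the others one of 6.64 CPM. Their spans were not matched, and Nanog's nearest partner across the ES boundary was 70 kb away. In ES Hi-C 5 of 77 pairs crossed the ES boundary, none from Nanog, and none of the 22 ES KLF4 pairs did. The position of the MEF boundary was crossed by 19 of the 124 pairs in ES H3K27ac, 15 of 77 in ES Hi-C and 3 of 22 in ES KLF4. The 4 Hi-C pairs of the Dppa3 bin in ES all led upstream, whereas in H3K27ac the Dppa3 bin reached Nanog and the downstream maximum.

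**Figure D5:**
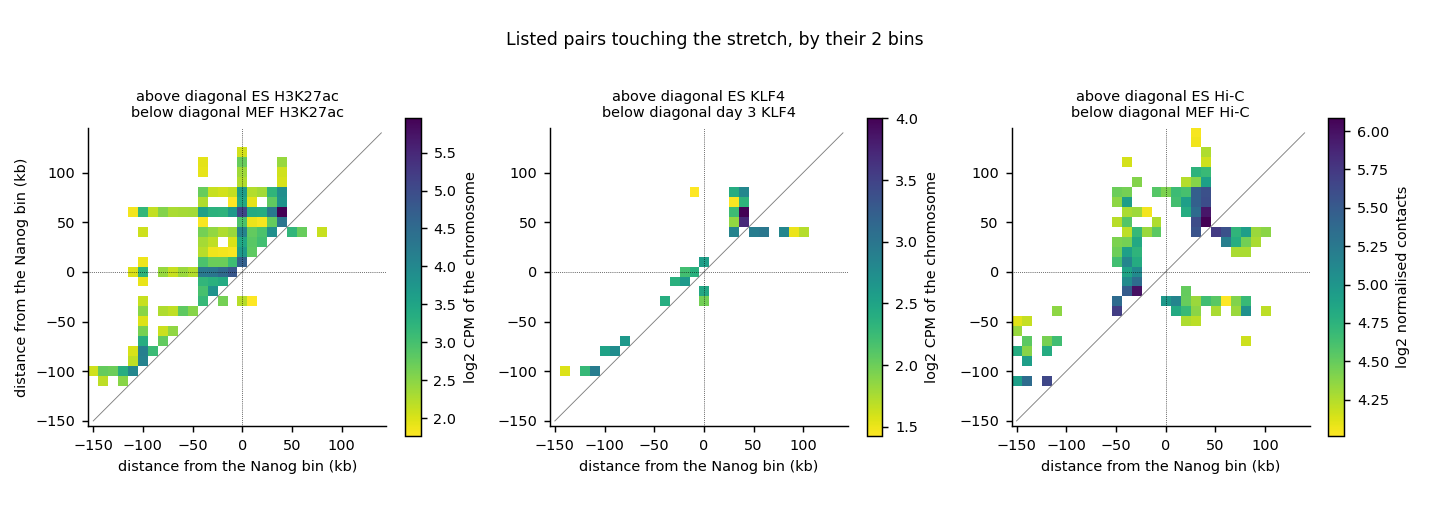
Listed pairs of the stretch as squares at the positions of their 2 bins (both axes, kb from the Nanog bin, window from 150 kb upstream to 140 kb downstream), coloured by log2 strength on a separate scale in each panel; ES lies above the diagonal, and MEF or day 3 below it. The H3K27ac panel shows rows and columns of pairs at the Nanog bin and at 60 kb downstream in ES and 6 squares in MEF, while Hi-C shows pairs on both sides of the diagonal.

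Set against other pluripotency genes, the Nanog bin was at the upper end in ES H3K27ac. Of 24 genes of the network in a list, 21 had a bin in the authors' naming, all but Sox2, Esrrb and Lefty1. In ES H3K27ac these had 1 to 23 pairs with a median of 7, and 20 of the 21 had fewer than Nanog. As examples chosen after their values were seen, Mycn had 23, Sall4, a zinc finger factor of ES cells, 20, and Pou5f1, which encodes Oct4, 17. In MEF H3K27ac 19 of the 21 had none. In ES KLF4 Nanog was near the middle, with 3 pairs against a range of 0 to 7 and 7 for Pou5f1. In ES Hi-C its 3 pairs stood against a range of 0 to 12 and a median of 5, and 8 of the 21 had fewer. From 0 h to 24 h in TKO 11 of the 21 had fewer pairs, 5 more and 5 the same number. The whole list went from 93248 to 84256 pairs, and the share of all gene bins with fewer pairs was not counted. As a check of the cell labels, 5 fibroblast genes with a bin had 1 to 9 H3K27ac pairs in MEF, with a median of 8, and 0 to 5 in ES, with a median of 0. Col1a1, a collagen gene, had 8 and 0, but Fn1, the fibronectin gene, went the other way with 1 and 5.

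The bins whose pair numbers over the 9 lists were most like those of Nanog, by Euclidean distance of log2(number + 1) among 10484 bins with a gene, were those of Zfp568 (distance 0.787), 1700031A10Rik (1.19), Max (1.28), AI846148 (1.42) and the shared bin of Ect2 and 1700125G22Rik (1.44). Zfp568, on chromosome 7, had 19, 18 and 16 pairs in ES, TKO 0 h and TKO 24 h H3K27ac, and 1 in MEF. Its numbers in day 3, day 6 and ES KLF4 were 3, 0 and 2.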

How the data were processed

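The members and the gene lists were chosen with earlier results of these data known. Bowtie2 2.2.3 and mm10 are named per the submitters' processing notes, while the contact caller, domain caller and the test behind the p-values are not given in the sources used here. Per the file headers, each list gives for every pair of 10 kb bins and every library a raw contact count, a CPM and a ratio of observed to expected contacts, and per pair the authors' p-value and FDR. The deposited CPM is relative to all contacts of the same chromosome in HiChIP, as count over CPM gave 1 whole number per chromosome. In Hi-C the deposited value named CPM has another scale and is treated as a signal made by the authors. The ratio was not used. The deposited domain files carry a score per domain, also unused. Listed p-values lay under 0.1 in HiChIP and 0.01 in Hi-C, and no deposited value lay under a CPM of 3 in H3K27ac or under a signal of 15 in Hi-C. In the KLF4 lists only libraries 1 and 2 had no value under a CPM of 3.

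Counts were tested with edgeR 4.0.16 (R 4.3.3; filterByExpr, TMM on contact totals or, in Hi-C, on the summed counts of the tested pairs, quasi-likelihood test, the 2 groups compared only) over all pairs in both lists of a comparison, called at a Benjamini-Hochberg adjusted p under 0.05. The test says nothing about pairs in 1 list only. Log2 differences are second over first group, and standard errors come from the test statistic. Libraries were compared by a chi-square test over pairs at 2 times the limit or more. Those with p of 0.05 or more, in a group where others differed, were summed, and the 4 day 6 libraries, none of which differed, stayed separate. Alternatives were DESeq2 1.42.0, other scalings and filters, a block and libraries left out. Recovery of known changes was checked on simulated counts. Same-numbered libraries were not paired (correlations of deviations -0.08 to 0.04).

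Pairs named are Nanog's pairs in both lists (up to 10 by mean CPM), the 5 called pairs with the smallest adjusted p per comparison, and the strongest 5 and longest 3 per list. For completeness all pairs of the stretch tested between MEF and ES H3K27ac and in KLF4 are given, and the last called pair of these was added after its value was seen. Apart from motif searches in the 32851 promoters of RefSeq GRCm38.p6, Python 3.11.15 and pandas 2.3.3 were used for tables. Of 5 genes at the stretch, Apobec1 and Nanog had a promoter entry.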

Additional observations from a re-analysis of the deposited data

How the results depend on the processing

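Leaving out single libraries in turn, the median log2 difference of the stretch ranged from 1.10 to 1.29 (MEF and ES H3K27ac). Counts of called pairs in the stretch ranged from 1 to 2 (KLF4 day 3 and ES), 1 to 2 (day 6 and ES), 0 to 0 (day 3 and day 6) and 3 to 6 (TKO). For Hi-C the median log2 difference ranged from 0.096 to 0.22. The fits without ES KLF4 libraries 1 and 2, or 3 and 4, and the one with TKO 0 h libraries 2 and 3 summed, were chosen after seeing the data. With the replicate number as a block, libraries separate, the counts were 6, 2, 2, 0, 6 and 0, so the block changed no count. A group left with 1 replicate is assumed to vary like the other. The numbers are shared labels only and do not pair libraries.

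Over all pairs DESeq2 called 2458, 72, 14, 42, 269 and 0, against 5721, 532, 70, 137, 1894 and 40. In the stretch it called 1 for both KLF4 contrasts with ES and 2 for TKO. Anchors at least 20 kb apart left 3 and 1 pairs to test in those KLF4 contrasts, of which 1 and 1 were called. The called pair of adjacent bins was thus not tested there. Contact totals without TMM, and chromosome offsets, gave 2 for day 3 and day 6 and 11 for TKO. Over all pairs these 2 scalings changed the calls from 3152 higher and 2569 lower to 4831 and 1426 or 4528 and 1457 (MEF and ES), from 223 and 309 to 128 and 156 or 108 and 159 (day 3 and ES), from 54 and 16 to 1158 and 1 or 1043 and 1 (day 6 and ES), from 34 and 103 to 6 and 1584 or 6 and 1551 (day 3 and day 6), and from 407 and 1487 to 183 and 3019 or 176 and 3034 (TKO). Listed pairs in the stretch became 1 at day 6 and 13 in ES KLF4 at 20 kb or more. ES KLF4 and day 3 reduced to the length of the day 6 list held 2 each, and ES Hi-C at MEF length 44.

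Directions turned for values near 0. The KLF4 pair of the bins 40 and 80 kb downstream (day 3 and ES) went to -0.11 with the block and -0.11 without ES libraries 3 and 4, and ranged from -0.061 to 0.19 leaving out single libraries. That of the bins 40 and 50 kb (day 3 and day 6) went to -0.53 and -0.56 under the 2 scalings. In TKO, Nanog's pair 10 kb downstream went to -0.050 and -0.052 under them and ranged from -0.012 to 0.12 leaving out libraries. Its pair at 20 kb went to -0.097 and -0.098, to -0.011 with anchors at 20 kb, and ranged from -0.076 to 0.11. Nanog's Hi-C pair went to 0.11 with chromosome offsets and ranged from -0.33 to 0.31. Depth limits all of this, since pairs near 3 CPM rest on few contacts and unlisted pairs have no value.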
